A study of Mus musculus with 6 samples.

Results

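Cytosolic ribosomal protein genes encode the proteins of the 2 subunits of the ribosome that translates nuclear messages. They were taken from the table of normalised reads by symbol: Rpl or Rps followed by a number and an optional a, l or x, with Rplp0, Rplp1, Rplp2 and Rpsa added. This gave 82 of 40202 listed genes, 51 of the large subunit (the Rpl symbols) and 31 of the small subunit (the Rps symbols). The samples were BV2 cells, an immortalised mouse microglial line whose labels give C57BL/6 as its strain background. In 3 samples the cells were left untreated, and in 3 they were incubated for 5 h with 25 µg/ml of human full-length ApoE4 (FL-ApoE4), a form of apolipoprotein E, which carries lipids. Whether the untreated cells received the vehicle of the protein is not stated in the labels. Nor do the labels say that replicates are separate cultures, so each p-value reflects the spread of these samples alone, and that spread may be technical. The question was whether the messages of the translation machinery differ after exposure to FL-ApoE4, between the subunits, or between libraries of one group.

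Nearly all ribosomal proteins are needed in equal numbers, and a growing cell spends much of its transcription on them. Their messages are short and stable, and most begin with an uninterrupted stretch of C and T bases, the 5′ terminal oligopyrimidine (TOP) motif. Through it, the kinase mTOR and the protein Larp1 set how much of the message is translated, so the cell can change ribosomal protein synthesis with little change in message level. Total RNA sequencing measures the level of the message and not its translation.

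Runs of C and T bases near the annotated starts were counted, a feature that the choice of members did not use. A run here may lie on either side of the start, so it is not a test of the TOP motif itself. The table of RefSeq promoters (GRCm38.p6, where the authors' build is GRCm39) held 61 of the 82 genes, 38 of the large and 23 of the small subunit. An uninterrupted run of at least 8 C or T bases within 25 bases on either side of an annotated start was present in 33 of the 61 (54.1%), against 22.3% of all 27025 genes of the table and 22.8% of the tested genes. It was present in 22 of 38 large subunit genes (57.9%) and 11 of 23 small subunit genes (47.8%). The 7 sequences that follow first show the 3 longest runs of the large subunit and the 2 longest of the small subunit, then 2 genes that stand at opposite ends of the comparison of libraries given further on. Each is 30 bases on the strand of the gene, 5′ to 3′, with the longest C or T run in capitals. The runs of Rps25 and Rpl10 end before their annotated starts, and that of Rps26 begins after its annotated start.
Rpl7a, chr2:26910788-26910817, plus strand: cacaaTTCCCTCTTCTTTCTTTCTCCagca
Rpl27a, chr7:109519186-109519215, plus strand: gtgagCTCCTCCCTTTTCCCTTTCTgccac
Rpl34, chr3:130730330-130730359, minus strand: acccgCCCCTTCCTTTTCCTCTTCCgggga
Rps25, chr9:44407689-44407718, plus strand: gggCTTCCTTTTTTTCCgacatcttagcga
Rps10, chr17:27635227-27635256, minus strand: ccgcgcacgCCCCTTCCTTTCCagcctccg
Rps26, chr10:128626485-128626514, minus strand: aagccgccggaTCCTCTTTCgagtcttggc
Rpl10, chrX:74270791-74270820, plus strand: taaCTCTatggttgttacagtggaagatag
The run of Rpl7a was 21 bases long, those of Rpl27a and Rpl34 20 bases, that of Rps25 14 bases, that of Rps10 13 bases, that of Rps26 9 bases and that of Rpl10 4 bases. The letters CTTCCG, searched on both strands of the 300 bases from 250 before to 50 after the start, were present in 41 of the 61 genes (67.2%), against 18.8% of all genes and 33.7% of tested genes. The letters TATAAA, searched on the strand of the gene from 50 bases before the start to 25 after it, were present in 3 of the 61 (4.9%), against 3.6% of all genes and 2.2% of tested genes.

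Libraries held 45700128 to 54965393 reads assigned to genes, so counting error was small for all but the lowest of these genes. Replicate 1 was the shallowest library of each group, at 48784016 reads in the controls and 45700128 with FL-ApoE4. Of the 10 microglia and macrophage markers checked, 9 passed the filter, a mean of at least 10 normalised reads over the 6 libraries, and P2ry12 was listed at 0 in all libraries. Their summed level was 114618 to 117841 normalised reads in the controls and 127857 to 133679 with FL-ApoE4. The summed markers of neurons stayed between 19.6 and 27.2 normalised reads, those of astrocytes between 23.5 and 43.4, and those of oligodendrocytes between 1151 and 1297, nearly all of it Mbp. The part of these differences in the values that follow was not tested.

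Of the 82 genes, 79 passed the filter, 49 of the large and 30 of the small subunit. The other 3 were listed at 0 in all 6 libraries. Among them were Rpl10l, a testis-expressed copy of Rpl10, and Rpl32l. A 0 is reported only as listed at 0. A further 4 genes of the large subunit were low: Rpl28 at a mean of 291 normalised reads, Rpl3l at 151, Rpl39l at 25.7 and Rpl6l at 24.6. Rpl28 is a core protein and no restricted copy, and whether overlapping annotation or the assignment of its reads sets its value could not be settled. The remaining 75 genes, 45 of the large and 30 of the small subunit, each had a mean of at least 1000 normalised reads and are called the abundant genes here. How reads from near-identical copies were assigned is not given in the sources used here. Ribosomal protein genes have many processed pseudogenes, and of 16 listed rows with pseudogene symbols of this family 5 held a read and 3 passed the filter. Pseudogenes listed under other symbols were not searched. Values of single genes are therefore uncertain to an extent that was not measured.

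Levels of different genes were compared per kb of transcript. On this scale 17 of the 50 highest genes and 35 of the 100 highest, among 29587 genes with a known length, belonged to the family. The highest of the large subunit were Rplp1 at 102346 normalised reads per kb, Rpl8 at 82519, Rplp0 at 58317 and Rpl4 at 50547. Rplp0, Rplp1 and Rplp2 form the stalk that recruits elongation factors, Rpl8 lies near the peptidyl transferase centre, and Rpl4 lines the exit tunnel. The highest of the small subunit were Rps14 at 64221 normalised reads per kb, Rps18 at 52532, Rps15 at 49058 and Rps24 at 45796. Rps14 is a protein of the platform, and Rps15 and Rps18 lie in the head of the subunit. The median abundant gene stood at 23917 normalised reads per kb in the large subunit and at 28874 in the small subunit, within a range from 3065 to 102346 over both, a 33.4-fold spread. The lowest abundant genes of the small subunit were Rps20 at 3065, Rps15a at 4832 and Rps16 at 12610 normalised reads per kb. The first and second of these values rest on annotated lengths of 3706 and 5179 bases, against a median of 780 bases for the abundant genes, so the order at the low end depends on the transcript taken.

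**Figure D1:**
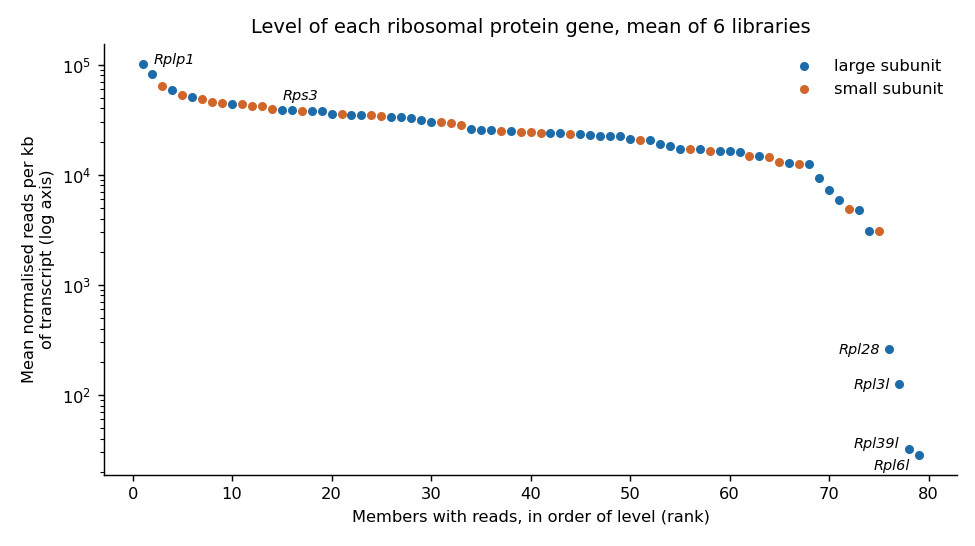
Mean normalised reads per kb of transcript over the 6 libraries (log axis) for the 79 genes with reads, in order of level (rank), large subunit in blue and small subunit in orange. Values fall from 102346 for Rplp1 to about 3065 over 75 genes of both subunits, and Rpl28, Rpl3l, Rpl39l and Rpl6l lie far under them.

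Pairs of related genes differed widely in level. Rpl3, which reaches into the peptidyl transferase centre, stood at 30190 normalised reads per kb and its muscle-enriched copy Rpl3l at 126. Rpl39, of the exit tunnel, stood at 16987 and its testis-enriched copy Rpl39l at 31.9. The X-linked Rpl10 stood at 23241, whereas Rpl10l was listed at 0. The p53-responsive copy Rps27l was closer to its partner, at 13056 normalised reads per kb against 33833 for Rps27. The X-linked Rps4x, of the small subunit body, stood at 38246 normalised reads per kb. It was at 40380, 35229 and 35780 normalised reads in the controls and at 40602, 36196 and 35548 with FL-ApoE4, highest in replicate 1 of each group.

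Together the genes took 3.52%, 3.43% and 3.32% of all reads in control replicates 1 to 3. They took 3.77%, 3.35% and 3.34% in FL-ApoE4 replicates 1 to 3. The treated group thus had both the highest value and the second lowest, and the groups overlapped. The means were 3.42% ± 0.0956 in controls and 3.48% ± 0.246 with FL-ApoE4 (SD, n = 3 each), a difference of 0.0624 percentage points that lies within the spread of either group. Without FL-ApoE4 replicate 1 the difference became -0.0798 percentage points, and without control replicate 1 it became 0.109. Shares of a library do not show RNA per cell, and fewer cells and less RNA per cell cannot be told apart.

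The subunits moved together from library to library. The large subunit took 2.15%, 2.11% and 2.04% of reads in the controls and 2.30%, 2.06% and 2.05% with FL-ApoE4. The small subunit took 1.37%, 1.32% and 1.28% in the controls and 1.47%, 1.29% and 1.29% with FL-ApoE4. Reads of the large over the small subunit stood at 1.571, 1.598 and 1.596 in the controls and at 1.572, 1.601 and 1.595 with FL-ApoE4. The ratio was lowest in replicate 1 of each group, and the other 4 libraries lay between 1.595 and 1.601. Its group means were 1.588 ± 0.0151 and 1.589 ± 0.0154 (SD, n = 3 each), so FL-ApoE4 and control differed by 0.000938, less than the spread of either group. A sum is led by the most abundant genes. With the mean of log2 values over the 75 abundant genes the same 2 libraries were lowest, by -0.02 and -0.01 relative to the mean of the 6. With the low genes included, FL-ApoE4 replicate 1 was no longer low, at 0.003.

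**Figure D2:**
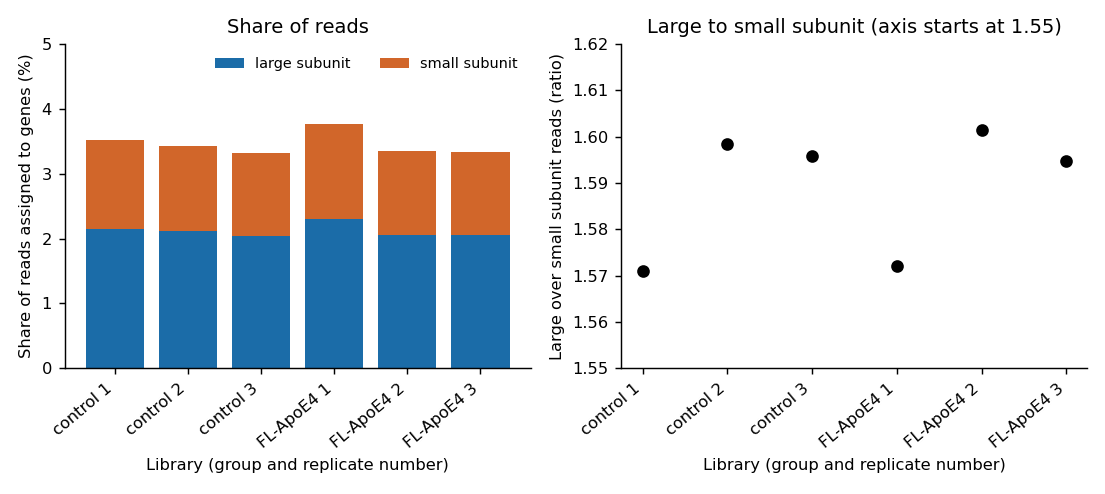
Left, share of reads assigned to genes (%) taken by large subunit (blue) and small subunit (orange) genes, stacked, in each of the 6 libraries. Right, ratio of large to small subunit reads in each library, on an axis that does not start at 0; replicate 1 of each group lies at 1.57 and the other 4 libraries at 1.595 to 1.601.

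No ribosomal protein gene passed the threshold between FL-ApoE4 and control. With limma on log2(value + 1) and Benjamini-Hochberg adjustment, 0 of the 79 had an adjusted p under 0.05, as did 0 of all 14079 tested genes (0.0%). At an unadjusted p under 0.05 the count was again 0 of 79, against 1850 of the tested genes (13.1%). DESeq2 called 0 of the 79 and 2.63% of tested genes. In 59 genes the log2 difference, FL-ApoE4 minus control, was positive and in 20 negative, with a median of 0.013 over the 79, 0.015 in the large and 0.011 in the small subunit, beside 0.001 over all tested genes. The direction of these medians is not stable: the median of the 79 was -0.05 without FL-ApoE4 replicate 1 and 0.05 without control replicate 1. Positive differences numbered 67 of 79 after scaling to equal totals, with a median of 0.0276 beside 0.0161 over all tested genes. They also numbered 67 of 79 after quantile normalisation, with a median of 0.0295 beside 0.005. After a correction of each library for its trend with transcript length and GC content they numbered 19 of 79, with a median of -0.03 beside -0.0028. Over all tested genes in the main test, 7085 differences were positive and 6994 negative.

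Differences in the abundant genes were small on the log2 scale. They ran from -0.05 for Rpl3 to 0.06 for Rpl39, with a median size of 0.02 against 0.10 for all tested genes and 0.06 for the 7692 tested genes with a mean of at least 1000. The 95% intervals of the 75 genes had a median half-width of 0.15 and all lay between -0.24 and 0.23, so a change beyond that range in any one of them lies outside its interval. In the authors' deposited table the same 79 genes had log2 fold changes from -0.23 to 0.26, 59 positive and 20 negative, with 0 at an adjusted p under 0.05. The share of all genes under that threshold in the deposited table was not counted, so this 0 has no background beside it.

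**Figure D3:**
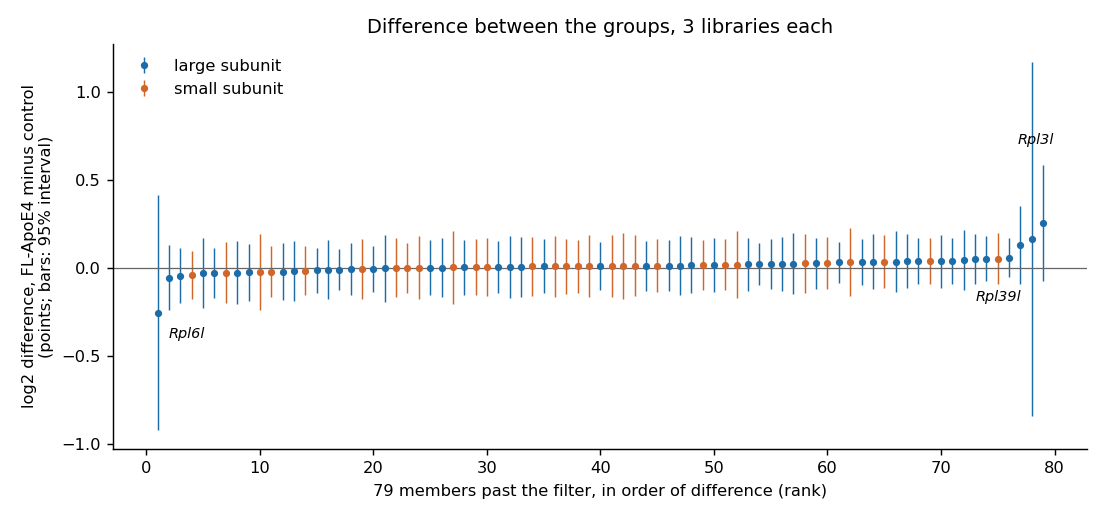
Difference in log2(value + 1), FL-ApoE4 minus control (points) with its 95% interval (bars), for the 79 genes past the filter in order of difference (rank), large subunit in blue and small subunit in orange, 3 libraries a group. Every interval spans 0, and the points lie near 0 except for the low genes Rpl6l, Rpl39l, Rpl28 and Rpl3l.

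The genes of lowest p all missed the threshold. Rpl3l was at 129, 136 and 147 normalised reads in the controls and at 175, 137 and 183 with FL-ApoE4, so treated replicate 2 lay within the control range. Its log2 difference was 0.26 ± 0.14 (SE), with an unadjusted p of 0.111 and an adjusted p of 0.495 by limma. Rpl28 was at 282, 267 and 282 in the controls and at 309, 279 and 325 with FL-ApoE4. Its log2 difference was 0.13 ± 0.09 (SE), and its treated replicate 2 lay among the controls.

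Rpl39 was the only one of the 79 genes whose groups did not overlap, which held for 21.9% of tested genes. It was at 10250, 10196 and 10082 normalised reads in the controls and at 11128, 10340 and 10380 with FL-ApoE4. The log2 difference was 0.06 ± 0.05 (SE, limma adjusted p = 0.653), and FL-ApoE4 replicate 1 lay farthest above the controls. Rpl36a was at 10086 ± 190 in controls and 10484 ± 623 with FL-ApoE4 (mean ± SD, n = 3 each), with a log2 difference of 0.05.

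On the lower side, Rpl6l stood at 22.8, 29.4 and 27.3 normalised reads in the controls and at 29, 14.8 and 24.5 with FL-ApoE4. With so few reads its log2 difference was -0.25 ± 0.29 (SE), and the groups overlapped. Rpl3 was at 46400, 39867 and 38498 in the controls and at 42306, 39059 and 38592 with FL-ApoE4, giving a log2 difference of -0.05 ± 0.08 (SE). Its highest value was control replicate 1, and without that library the difference was 0.03. Rpl27 and Rpl12, a protein at the base of the stalk, had log2 differences of -0.04 and -0.03.

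Leaving libraries out did not bring any of the 79 genes past the threshold after adjustment. Without both replicate 1 libraries, limma called 0 of the 79 and 12.6% of tested genes, and 1 of the 79 had an unadjusted p under 0.05, against 25.8% of tested genes. With each library corrected for its trend with transcript length and GC content, 1 of the 79 had an unadjusted p under 0.05, against 15.6% of tested genes. Rpl3l had an unadjusted p of 0.0258 by limma without FL-ApoE4 replicate 2, where 7.85% of tested genes had one under 0.05. Without control replicate 1, limma called 4.62% of tested genes and 0 of the 79.

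Several members were named for known roles in the ribosome or beyond it, and their groups overlapped. Rps6, the target of the S6 kinases, was at 16234, 13659 and 13488 normalised reads in the controls and at 15674, 13363 and 14412 with FL-ApoE4. Rpl5 and Rpl11, which with 5S ribosomal RNA bind the p53 regulator Mdm2, were at 29671 ± 1278 and 28097 ± 1111 in controls and at 30277 ± 2013 and 28013 ± 2037 with FL-ApoE4 (mean ± SD, n = 3 each). Replicate 1 was the highest library of each group for all of them.
Rpl13a, part of a complex that silences inflammatory messages in myeloid cells, was at 39644, 37397 and 35159 in the controls and at 41205, 35786 and 36484 with FL-ApoE4. Rps3, of the mRNA entry channel, was at 79939, 73007 and 70660 and at 82230, 70558 and 72995. Rps19, mutated in Diamond-Blackfan anaemia, was at 13763, 13008 and 12716 and at 14009, 12320 and 12663. Each of them had its highest value in replicate 1 of its group, and the groups overlapped. For Rps6, Rpl5, Rpl11, Rpl13a, Rps3 and Rps19 the log2 differences lay between -0.02 and 0.03.
Rplp0, at 84070, 77124 and 75520 in the controls and 85261, 77141 and 76046 with FL-ApoE4, gave the same order of libraries in both groups. Rplp1 was at 51625, 49238 and 49522 and at 56214, 49913 and 49912. Rplp2 was at 23524, 22949 and 22483 and at 25264, 22293 and 21824. Rpsa, a small subunit protein also known as the laminin receptor, was at 35717, 31716 and 31620 and at 36007, 32265 and 31457. In all 4, replicate 1 stood above replicates 2 and 3 of its own group.

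The family also differed between libraries of one group. Each library was compared with the mean of the other 2 of its group on the log2 scale, and with 1 library on one side no test was made. FL-ApoE4 replicate 1 exceeded both replicates 2 and 3 in 77 of the 79 genes, against 38.7% of tested genes, and in all 75 abundant genes. The median deviation of the abundant genes was 0.18, a 1.13-fold higher level, with quartiles of 0.16 and 0.20. Over all tested genes the median was -0.005, with quartiles of -0.15 and 0.11. The large subunit, with a median of 0.17 over 49 genes, and the small subunit, with 0.18 over 30, stood side by side.
Control replicate 1 exceeded both other controls in 68 of the 79 genes, against 40.9% of tested genes. The median deviation of the abundant genes there was 0.11, a 1.08-fold higher level, and it was more spread, with quartiles of 0.06 and 0.15. Control replicate 3 lay under both other controls in 61 of the 79, against 29.5% of tested genes, with a median deviation of -0.09. Of the 75 abundant genes, 66 exceeded both other libraries of their group in both replicate 1 libraries, as did 20.2% of tested genes.

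**Figure D4:**
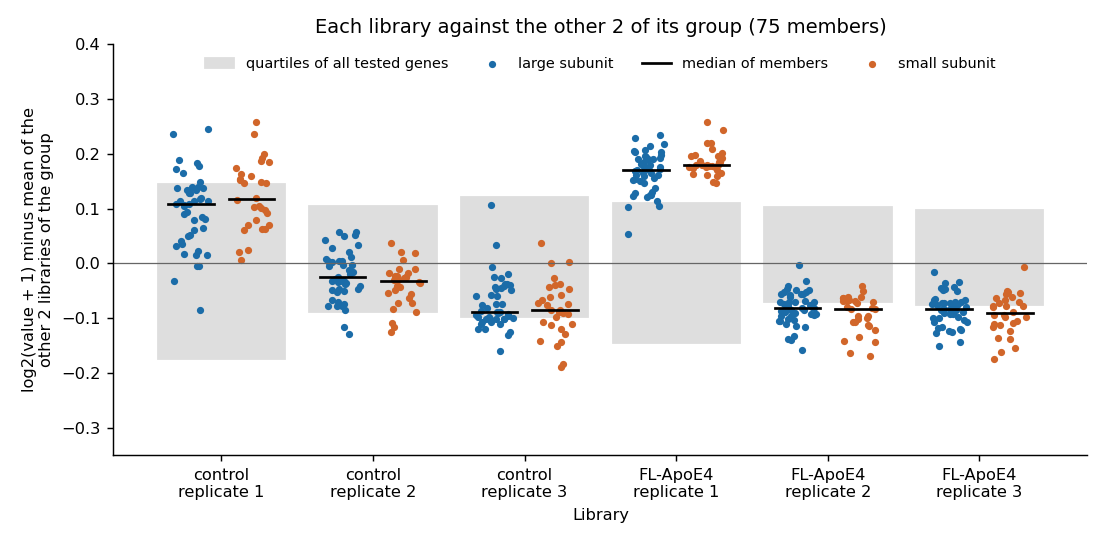
Log2(value + 1) in each library minus the mean of the other 2 libraries of its group, for the 75 abundant genes (points, large subunit blue, small subunit orange), with the median of each subunit (black line) and the quartiles of all tested genes (grey box). In FL-ApoE4 replicate 1 every point lies above 0, with medians of 0.17 and 0.18, and control replicate 1 is the next highest.

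Among single genes the shift of FL-ApoE4 replicate 1 was widest in Rps14, lost in the 5q- syndrome, which stood at 42725 normalised reads there and at 36480 and 34992 in replicates 2 and 3, a deviation of 0.26. Rps26, of the mRNA exit channel, stood at 18079 against 15552 and 14997, a deviation of 0.24, and Rpl21 at 6333 against 5451 and 5322, a deviation of 0.23. Rpl39l and Rpl6l had larger deviations, 0.85 and 0.58, on 37.9 against 24.1 and 17.6, and on 29 against 14.8 and 24.5 normalised reads, where counting error is large.
The narrowest shifts were in Rpl28 (0.04), Rpl10 (0.05), Rpl39 (0.10), Rpl4 (0.10) and Rpl10a (0.11). Rpl10, which completes the large subunit late in its assembly, stood at 19253 in FL-ApoE4 replicate 1 and at 18754 and 18345 in replicates 2 and 3. In the controls it stood at 19282, 18060 and 17722. The whole range of the abundant genes was 0.05 to 0.26 in FL-ApoE4 replicate 1 and -0.08 to 0.26 in control replicate 1.

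**Figure D5:**
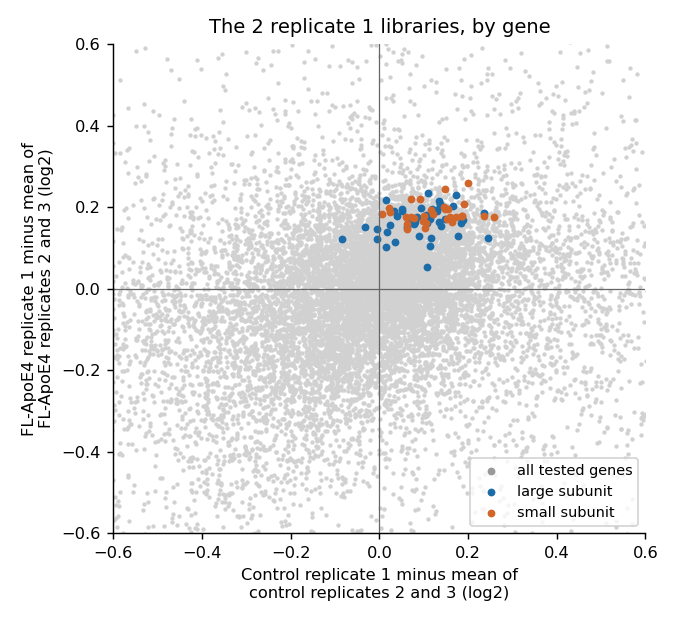
Deviation (log2) of control replicate 1 from control replicates 2 and 3 (x axis) against that of FL-ApoE4 replicate 1 from FL-ApoE4 replicates 2 and 3 (y axis), 1 point a gene, with tested genes in grey and the 75 abundant genes in blue (large subunit) and orange (small subunit). The axes leave out 2084 of 14079 tested genes, and the family lies in a compact cloud above 0 on the y axis, with most points right of 0 on the x axis.

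Transcript length moved with these deviations. In FL-ApoE4 replicate 1 the deviation of tested genes had a Spearman correlation with length of -0.46 across 12959 genes, which share 1 library, and the abundant genes are short, with a median length of 780 bases against 2722 for tested genes. Within the 75 abundant genes the same correlation was -0.13. In control replicate 1 it was -0.17 across tested genes and 0.26 within the abundant genes. After the correction for length and GC content the median deviation of the 79 genes in FL-ApoE4 replicate 1 was 0.09 in place of 0.18, or 0.12 with another choice of annotated length. In that library 75 of the 79 then exceeded both replicates 2 and 3, against 35.5% of corrected genes. In control replicate 1 the corrected median was 0.07, and 55 of the 79 exceeded both other controls, against 39.1% of corrected genes. The part of depth in these deviations was not tested.

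The shift was also read by the C or T run near the start. In FL-ApoE4 replicate 1 the median deviation was 0.18 in the 30 abundant genes with a run of at least 8 bases and 0.18 in the 26 with a shorter run. In control replicate 1 the medians were 0.12 and 0.10. Among single genes, Rpl28, with a run of 11 bases, had the lowest deviation in FL-ApoE4 replicate 1, at 0.04, Rpl4 had 0.10 with a run of 14, and Rpl37a had 0.23 with a run of 5. In the opposite direction, Rpl10 had 0.05 with a run of 4 and Rps26 had 0.24 with a run of 9. Rpl28 is not among the abundant genes. All of these single genes were picked after their values were seen.

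Other genes of the translation machinery were read from the same fit. Of 7 ribosomal protein genes under other symbols (such as Fau and Rack1), 0 had an adjusted p under 0.05 and the median log2 difference between the groups was 0.02. Its sign rests on single libraries, with -0.04 without FL-ApoE4 replicate 1 and 0.06 without control replicate 1. FL-ApoE4 replicate 1 exceeded both other treated libraries in 7 of the 7, at a median deviation of 0.17, against 38.7% of tested genes.
Of 16 translation factors and other products of TOP messages, 0 were called, 7 differences were positive and 9 negative, with a median of -0.003. That median was -0.04, with 1 of 16 positive, without FL-ApoE4 replicate 1 and 0.04, with 15 of 16 positive, without control replicate 1. Their median deviation was 0.12 in FL-ApoE4 replicate 1, where 14 of 16 exceeded both other libraries, and 0.12 in control replicate 1, where 15 of 16 did. For tested genes these shares were 38.7% and 40.9%. Npm1, a nucleolar chaperone, was at 107196, 92356 and 93266 normalised reads in the controls and at 103437, 91035 and 93322 with FL-ApoE4, again highest in replicate 1 of each group.
Of 77 tested mitochondrial ribosomal protein genes, limma called 0 with all libraries, 1 without control replicate 1 and 1 without both replicate 1 libraries, against 4.62% and 12.6% of tested genes in the last 2 settings. In FL-ApoE4 replicate 1, 75 of the 77 exceeded both other treated libraries, as did 38.7% of tested genes, and the median deviation of the 77 was 0.14. Between the groups their median log2 difference was 0.02, -0.007 after the length and GC correction, and -0.03, with 19 of 77 positive, without FL-ApoE4 replicate 1. In control replicate 1, 42 of the 77 exceeded both other controls, as did 40.9% of tested genes, and the median deviation of the 77 was 0.04. The median length of the 77 genes was 1280 bases.

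Genes that build ribosomes or control TOP messages had negative median differences between the groups, and limma called 0 of them with all libraries. Of 37 ribosome biogenesis genes, 8 differences were positive and 29 negative, with a median of -0.06. Over all tested genes 7085 were positive and 6994 negative. By limma 2 of the 37 had an unadjusted p under 0.05, both lower, against 13.1% of tested genes. Without both replicate 1 libraries limma called 2 of the 37, against 12.6% of tested genes, and the median was -0.04. Under quantile normalisation the median was -0.03, with 13 differences positive and 24 negative. With 1 library left out, positive differences ran from 2 of 37 without control replicate 2 to 15 of 37 without control replicate 1. In control replicate 1, 28 of the 37 exceeded both other controls, as did 40.9% of tested genes. Riok1, a kinase of late small subunit maturation, was at 2513, 2343 and 2368 normalised reads in the controls and at 2111, 2067 and 2213 with FL-ApoE4. The groups did not overlap, as in 21.9% of tested genes, and the log2 difference was -0.18 ± 0.06 (SE, limma adjusted p = 0.260). Riok2, its relative, was at 5696, 4448 and 4544 and at 4079, 3963 and 4227, a log2 difference of -0.25 ± 0.10 (SE, limma adjusted p = 0.330). Its highest value was control replicate 1, and without that library the difference was -0.14.
Of 13 genes that control TOP message translation, 12 differences were negative and 1 positive, with a median of -0.07, and 1 had an unadjusted p under 0.05, against 13.1% of tested genes. It was Larp1b, a relative of Larp1, at 1606, 1608 and 1621 normalised reads in the controls and at 1348, 1249 and 1350 with FL-ApoE4, giving a log2 difference of -0.29 ± 0.06 (SE, limma adjusted p = 0.136). The groups did not overlap, as in 21.9% of tested genes. Its adjusted p was 0.00746 with DESeq2, 0.0346 by limma without control replicate 1 and 0.00306 without both replicate 1 libraries, settings that called 2.63%, 4.62% and 12.6% of tested genes. In the other 20 alternatives it missed the threshold, with an adjusted p of 0.109 to 0.606 (0.134 with edgeR). The median of the 13 genes was -0.02 without FL-ApoE4 replicate 1. Without both replicate 1 libraries it was -0.007, with 4 differences positive and 9 negative. In FL-ApoE4 replicate 1, 9 of these 13 genes lay under both other treated libraries, as did 5768 of 14079 tested genes. The median deviation of the 13 genes was -0.06. Their median length was 4391 bases. The list holds Mtor, Rheb and Eif4e together with Tsc1, Tsc2 and Eif4ebp1 and was not sorted by direction of action. Its median therefore gives no direction of control.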

How the data were processed

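Total RNA of 6 BV2 samples was sequenced from directional libraries, per the labels' protocols. The submitters' processing notes name HISAT2 2.2.1, FastQC 0.11.8, DESeq2 1.30.1, HTSeq and the build GRCm39, without settings. The deposited table holds a normalised signal per gene, and all values were whole multiples of 1 read (tolerance 0.01), so reads were recovered by division for depth, shares, edgeR and DESeq2. The authors' deposited table of log2 fold changes and p-values was used only where named.

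Groups were compared with limma 3.58.1 in R 4.3.3 (two-sided, trended variance) on log2(value + 1), for 14079 genes with a mean of at least 10, Benjamini-Hochberg adjusted over all of them, threshold 0.05; log2(value + 1) understates differences of low genes. It was tried on simulated data. Members and lists were chosen with earlier results of these data known. Named members were those highest and lowest per kb, of lowest p, of largest and smallest deviation in FL-ApoE4 replicate 1, listed at 0, the stalk proteins, and those with known roles or paralogs; genes named for their start sequences were added after values were seen. Some genes that the rule names are not reported here. Lengths and GC came from GENCODE M21 transcripts paired with RefSeq (92.0% of tested genes, all members); this choice of transcript was made after 2 others had been seen. Alternatives covered the pseudocount, filter, scaling, test (edgeR 4.0.16, DESeq2 1.42.0), length and GC correction, replicate block and each library left out.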

Additional observations from a re-analysis of the deposited data

How the results depend on the processing

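In 23 alternatives to the main test, 0 of the ribosomal protein genes were called in each. Their median log2 difference ran from -0.05 to 0.05 when 1 library was left out and from -0.03 to 0.03 in the other settings, so its sign is not determined. Members at an unadjusted p under 0.05 numbered 0 to 1 on the higher side when 1 library was left out. On the lower side the count was 1 with the length and GC correction and 1 without both replicate 1 libraries. Alternatives were run for the 5 members of lowest p in each direction, not for the other named members. Of 229 such differences, 224 kept their direction and side of the threshold and 5 changed sign: Rpl12 at 0.0238 under quantile normalisation and, when 1 library was left out, Rpl12 (-0.0804 to 0.0036), Rpl6l (-0.4467 to 0.0144), Rpl27 (-0.0938 to 0.0047) and Rpl3 (-0.1064 to 0.0283). Changing the filter or the variance model, or adding the replicate block, leaves the difference itself as it was. Those settings are part of the count and could not change a sign. The causes of the 5 changes of sign were not tested.

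Over all tested genes, 0 calls became 651 without control replicate 1, 1767 without both replicate 1 libraries, 370 with DESeq2, 24 with the length and GC correction, 1 without FL-ApoE4 replicate 2 and 1 with every gene above 0; edgeR called 0, with 1844 at an unadjusted p under 0.05. Leaving out both replicate 1 libraries, the edgeR block, another transcript length, and the subunit ratio over abundant genes were chosen after seeing the data.

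Replicate numbers are shared between the groups, but same-numbered libraries deviated together with correlations of 0.13, 0.07 and -0.03 over tested genes and 0.26, 0.05 and 0.17 over the abundant genes. Not all exceed 0.1 in either set, and the main test did not take the numbers as pairs. Of the 3 controls, 2 correlated best with their own number. A correlation across genes leaves out a shift that all of them share, so it cannot decide whether the numbers mark pairs. The median deviation of the abundant genes was 0.11 in control and 0.18 in FL-ApoE4 replicate 1. With the control first, it was -0.03 and -0.08 in replicate 2, and -0.09 and -0.08 in replicate 3. With a replicate block, limma called 0 members and 0 of all genes (2177 at an unadjusted p under 0.05) and edgeR likewise 0 (2157). The block with the length and GC correction gave 1 member at an unadjusted p under 0.05, lower, against 16.2% of tested genes.

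Depth limits Rpl6l and Rpl39l, at about 25 normalised reads. For the abundant genes the spread between libraries sets the precision.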
